A study of Mus musculus with 6 samples.

Results

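This account covers 10 genes for nuclear repressors that keep germline genes and retroelements silent, read from 14162 genes measured in embryonic mouse lung with and without the DNA methyltransferase Dnmt1. The genes were chosen by name and not by a cut on their values, though earlier results of these data were known. They are Trim28, Setdb1, Ehmt1, Ehmt2, E2f6, Mga, L3mbtl2, Pcgf6, Max and Atrx, and each symbol matched 1 identifier in every library. RNA-seq was done on whole lungs at E12.5, in 3 libraries from ShhCre-Dnmt1KO embryos (called Dnmt1KO) and 3 from wild-type littermates (called WT). In the Dnmt1KO embryos the Cre enzyme is driven by Shh, a gene of the endoderm that forms the airway epithelium and not of most other lung cells. Cre appears in the labels of the Dnmt1KO group alone, so effects of Cre and of the deletion cannot be told apart. The labels do not say whether a library is 1 embryo, so p-values measure the spread between these libraries, which may be technical.

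Silencing of germline genes in body cells rests on layers that act beside DNA methylation. PRC1.6 is a variant Polycomb repressive complex that is brought to germline gene promoters by E2F6 and by the pair MGA and MAX, and it holds L3MBTL2 and PCGF6 as further subunits. EHMT1 (GLP) and EHMT2 (G9a) place mono- and dimethylation on lysine 9 of histone H3. SETDB1 places the trimethyl form at sites where TRIM28 (KAP1) has been brought by zinc finger proteins, above all at retroelements, and ATRX remodels chromatin at such repeats.

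The DNA letters that the recruiting factors read can be seen upstream of some of these genes and of the germline genes they are known to hold silent. The sequences below are the 250 bases before the annotated start, from RefSeq on build GRCm38.p6, 5′ to 3′ on the strand of the gene. They are examples that hold the E-box CACGTG, which MGA and MAX bind, or the E2F motif TTCCCGC, which reads GCGGGAA on the other strand. Of 12 measured germline genes with either motif, those printed are Ddx4 and the 3 that passed the test described below. The printed windows thus do not stand for the 12, of which 9 did not pass. The capitals mark these motifs, and no copies of the 2 motifs overlap in these windows. Tuba3a (chr6:125286082-125286331, minus strand) and Tuba3b (chr6:145615713-145615962, plus strand) are testis tubulin genes, Mov10l1 (chr15:88982744-88982993, plus strand) is a helicase gene of the piRNA pathway, Ddx4 (chr13:112652311-112652560, minus strand) is a germ cell helicase gene, and Trim28 (chr7:13023902-13024151, plus strand) and Ehmt2 (chr17:34898224-34898473, plus strand) are repressor genes.
Tuba3a: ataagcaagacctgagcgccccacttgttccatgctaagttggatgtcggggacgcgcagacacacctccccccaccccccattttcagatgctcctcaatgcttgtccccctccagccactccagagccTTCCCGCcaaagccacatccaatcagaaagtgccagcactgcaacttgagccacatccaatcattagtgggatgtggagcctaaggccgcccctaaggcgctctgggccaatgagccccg
Tuba3b: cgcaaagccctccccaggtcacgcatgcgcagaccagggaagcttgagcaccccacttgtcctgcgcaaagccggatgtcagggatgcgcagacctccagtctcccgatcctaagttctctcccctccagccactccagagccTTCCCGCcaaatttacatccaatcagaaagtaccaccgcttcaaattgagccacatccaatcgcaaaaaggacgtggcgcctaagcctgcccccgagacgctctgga
Mov10l1: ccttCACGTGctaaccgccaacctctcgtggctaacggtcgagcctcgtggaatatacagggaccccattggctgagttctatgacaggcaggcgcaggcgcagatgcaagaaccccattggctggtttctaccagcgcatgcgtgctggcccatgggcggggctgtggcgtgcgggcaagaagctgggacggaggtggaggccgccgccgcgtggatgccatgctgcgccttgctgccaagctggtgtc
Ddx4: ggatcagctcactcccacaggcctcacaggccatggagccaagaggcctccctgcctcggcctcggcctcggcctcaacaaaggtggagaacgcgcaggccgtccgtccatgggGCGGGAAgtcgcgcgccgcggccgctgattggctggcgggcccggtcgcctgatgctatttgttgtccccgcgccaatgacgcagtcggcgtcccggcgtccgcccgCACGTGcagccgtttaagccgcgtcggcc
Trim28: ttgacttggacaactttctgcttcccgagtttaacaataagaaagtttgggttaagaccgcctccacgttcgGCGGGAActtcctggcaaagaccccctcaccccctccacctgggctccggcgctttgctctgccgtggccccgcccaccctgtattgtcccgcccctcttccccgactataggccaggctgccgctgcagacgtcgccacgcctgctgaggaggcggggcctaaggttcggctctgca
Ehmt2: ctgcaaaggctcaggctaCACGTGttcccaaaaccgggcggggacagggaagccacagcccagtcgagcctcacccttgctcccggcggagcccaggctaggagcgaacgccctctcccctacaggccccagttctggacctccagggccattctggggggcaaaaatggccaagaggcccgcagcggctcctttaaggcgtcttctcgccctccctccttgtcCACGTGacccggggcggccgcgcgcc
A second annotated start of Ehmt2 has 1 E-box in its window. Of the 10 repressor genes, all with a promoter in the table, Ehmt2 alone held an E-box and Trim28 alone the E2F motif, which makes 10% for each motif. Among 10826 measured genes with a promoter the E-box was present in 9.74% and the E2F motif in 7.96%, and among all 27025 genes of the promoter table in 6.86% and 4.38%. Of 22 measured germline genes with a promoter, out of the list described last, 9 held the E-box (40.9%) and 4 the E2F motif (18.2%). Known targets of PRC1.6 and E2F6 were put on that list, so its shares are no independent evidence of a link to these motifs. All motifs counted here are matches of letters and not measured binding sites.

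None of the 10 repressor genes passed the test between Dnmt1KO and WT lungs, and all differences were small. In limma's test over all genes 0 of the 10 were called higher and 0 lower at an adjusted p under 0.05, against 0.282% and 0.00706% of all genes (40 and 1 of 14162). With the lowest 25% of genes by mean removed, the 10 stayed in the table and 0 of its genes were called higher or lower. A count of 0 among the 10 thus equals the share over genes outside that lowest part. As each library was left out, the calls over all genes ran from 15 to 42 higher and from 0 to 17 lower, and those among the 10 stayed at 0. In the main fit of all 6 libraries the adjusted p of each of the 10 was 1, and none had an unadjusted p under 0.05 (all genes 4.52%). Voom on the reads recovered from the values also called 0. Log2 fold changes ran from -0.19 for L3mbtl2 to 0.058 for Atrx, which is 87.6% to 104% of the WT level. The 95% intervals reached from -0.42 (74.9% of WT, L3mbtl2) to 0.22 (117% of WT, Pcgf6), so every interval leaves out a change of 1 on the log2 scale in either direction for the lung as a whole. Of the 10, 7 had a negative fold change (6 with quantile normalization, sample weights or scaling to the recovered totals), with a median of -0.048, against 50.04% of all genes and a median of -5.88e-05. Those all-gene values take in many genes less abundant than the 10. Genes outside the least abundant 25%, which include all 10, had a median of -0.015, nearer to that of the 10. Their share of negative fold changes is not given here. The median of the 10 was -0.029 with quantile normalization, -0.086 without WT replicate 3 and -0.031 without WT replicate 2. In bulk RNA fewer cells of a type and less RNA per cell cannot be told apart, and the values average over epithelial cells and all other lung cells.

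**Figure D1:**
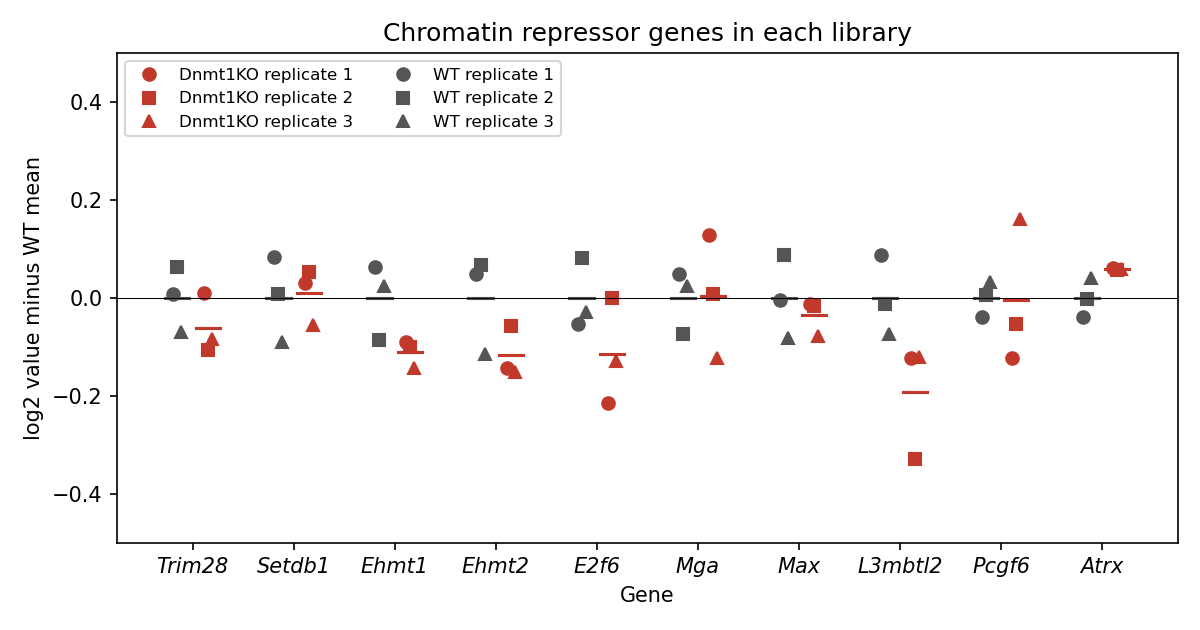
Log2 value of each repressor gene minus its WT mean (vertical axis) for the 3 WT libraries (grey) and the 3 Dnmt1KO libraries (red), with bars at group means and 1 marker shape per replicate number. L3mbtl2 has the lowest Dnmt1KO mean, 0.19 under WT, and the 3 Dnmt1KO values of Atrx lie almost on top of each other.

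Among the genes for histone H3 lysine 9 methylation, Trim28, the corepressor that brings SETDB1 to chromatin, had log2 values of 16.58, 16.46 and 16.48 in Dnmt1KO replicates 1, 2 and 3 and of 16.58, 16.63 and 16.50 in WT replicates 1, 2 and 3. The groups overlapped, with Dnmt1KO replicate 1 as high as WT replicate 1, and the difference was -0.061 ± 0.078 (SE, n = 3 each, limma adjusted p = 1). Setdb1 stood at 13.96, 13.98 and 13.88 in Dnmt1KO and at 14.02, 13.94 and 13.84 in WT. Its lowest and its highest value both came from WT libraries, and its difference was 0.0092 ± 0.080.

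Both partners of the G9a-GLP enzyme had lower means in Dnmt1KO. Ehmt1 had values of 14.49, 14.48 and 14.43 in Dnmt1KO against 14.64, 14.49 and 14.60 in WT. Every Dnmt1KO value was under every WT value, though the highest Dnmt1KO library, at 14.487, and the lowest WT library, at 14.490, were nearly equal. The difference was -0.11 ± 0.075, with a 95% interval of -0.28 to 0.061. Ehmt2 had 15.22, 15.31 and 15.21 against 15.41, 15.43 and 15.25, where WT replicate 3 fell below Dnmt1KO replicate 2, and a difference of -0.12 ± 0.082 (-0.30 to 0.069). Neither passed limma's test (adjusted p = 1 for each).

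Among the subunits of PRC1.6, the DNA-binding E2f6 had log2 values of 13.18, 13.39 and 13.27 in Dnmt1KO and 13.34, 13.48 and 13.37 in WT. Dnmt1KO replicate 1 was the lowest of the 6 libraries and Dnmt1KO replicate 2 lay inside the WT range, and the difference was -0.11 ± 0.087. Mga, the scaffold that carries both a T-box and a bHLH domain, had 14.11, 13.99 and 13.86 against 14.03, 13.91 and 14.01. Here Dnmt1KO replicate 1 was the highest library and Dnmt1KO replicate 3 the lowest, which left a difference of 0.0038 ± 0.088. Its partner Max had 12.74, 12.73 and 12.67 against 12.74, 12.84 and 12.67, a difference of -0.036 ± 0.081.

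The remaining PRC1.6 genes were the least abundant of the 10. L3mbtl2, whose product binds chromatin through MBT repeats, had 11.80, 11.59 and 11.80 in Dnmt1KO against 12.01, 11.91 and 11.85 in WT, from 638, 610 and 738 reads against 1032, 761 and 838. All 3 Dnmt1KO values were below all 3 WT values, Dnmt1KO replicate 2 by the widest margin. Its difference of -0.19 ± 0.098 had the smallest unadjusted p of the 10 (0.0856, adjusted p = 1) and the interval furthest from 0 (-0.42 to 0.034). Exons of L3mbtl2 share 1023 bases with Chadl on the opposite strand in the GRCm38 annotation, and the strand setting of the read counting is not given in the sources used here. Chadl had 76, 54 and 84 reads against 121, 59 and 67 (difference 0.050 ± 0.28). Pcgf6, the PCGF subunit that defines PRC1.6, had 11.84, 11.91 and 12.12 against 11.92, 11.97 and 11.99. Its Dnmt1KO libraries lay on both sides of the WT range, with a difference of -0.0045 ± 0.099.

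Atrx, the X-linked remodeller that deposits histone H3.3 at repeats together with DAXX, had 15.258, 15.254 and 15.256 in Dnmt1KO and 15.159, 15.196 and 15.239 in WT. All Dnmt1KO values were above all WT values, by little, and the difference was 0.058 ± 0.070 (-0.10 to 0.22). Dnmt1KO replicate 1 held 3 reads over the Y-linked genes Ddx3y, Eif2s3y, Kdm5d and Uty, where the other 5 libraries held 4155 to 5207, so the sexes were not balanced. Its Atrx value was within 0.0043 of those of the other Dnmt1KO libraries, and without it the difference was 0.057. Among the other X-linked genes on the lists below, Suv39h1 (-0.061 ± 0.072) and Phf8 (-0.014 ± 0.12) did not pass.

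**Figure D2:**
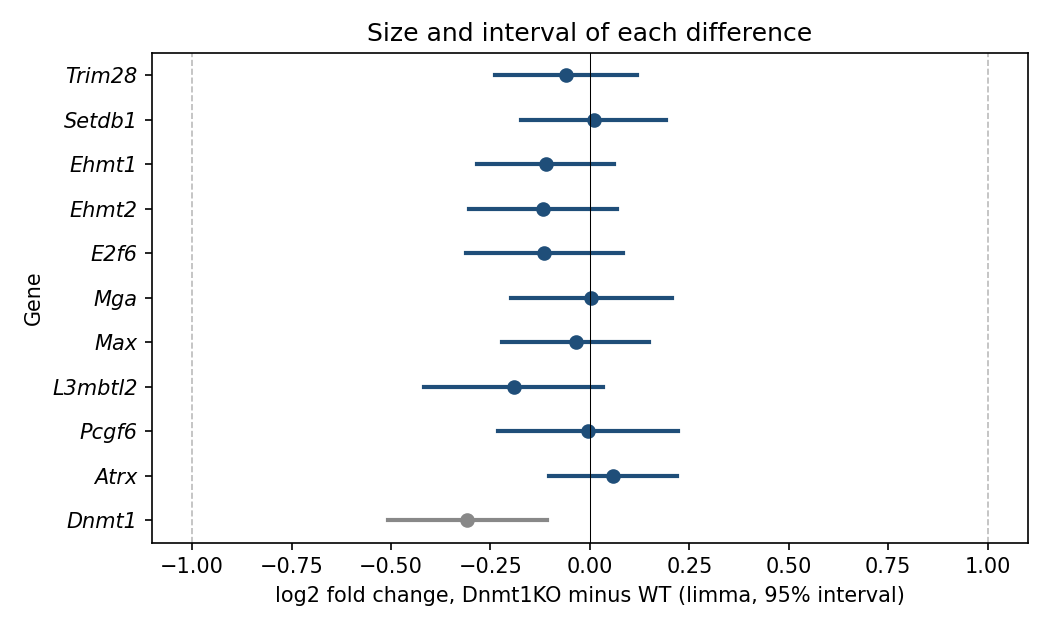
Log2 fold change of each repressor gene, Dnmt1KO minus WT (points), with the 95% interval from limma (bars), and Dnmt1 in grey, with dashed lines at log2 fold changes of -1 and 1. Every repressor interval spans 0 and stays between -0.42 and 0.22.

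Groups did not overlap for 3 of the 10 genes, with Ehmt1 and L3mbtl2 lower and Atrx higher. Over all genes 3.99% were lower and 4.79% higher without overlap. Exact two-sided permutation tests gave p = 0.1 for each of the 3, the smallest that 3 libraries against 3 allow. Spread within groups was low for all of them. The pooled SD within groups ran from 0.028 for Atrx to 0.11 for Pcgf6 on the log2 scale, against a median of 0.16 over all genes, which put the 10 genes between the 0.621 and 26.9 percentiles of all genes. They also stood between the 51.5 and 99.7 percentiles in mean log2 value, and the part of that abundance in the low spread was not tested.

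Per length, the 10 genes spanned a wide range that was kept in both groups. Reads per kilobase of exon, with each library scaled to 1000000 reads and exon lengths from the GRCm38 annotation, averaged 224 ± 8.97 (SD over all 6 libraries) for Trim28, the most abundant. Ehmt2 came next at 72.2 ± 4.33 and Ehmt1 at 28.3 ± 1.61, so the G9a transcript stood well above the GLP transcript in each library. Setdb1 followed at 22.4 ± 1.03. Max (18.5 ± 0.656), E2f6 (17.9 ± 1.15) and Atrx (17.2 ± 0.584) followed. The ranges of Max and E2f6 overlapped, as did those of E2f6 and Atrx, with the first of each pair higher in 4 of 6 libraries, so these neighbours do not differ beyond their spread. Max was above Atrx in 6 of 6 libraries. Mga stood at 10.3 ± 0.680, below its partner Max in every library, and Pcgf6 (7.75 ± 0.535) and L3mbtl2 (5.995 ± 0.547) were lowest. The exon length joins all annotated transcripts of a gene, so a gene with long rare transcripts appears lower on this scale.

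**Figure D3:**
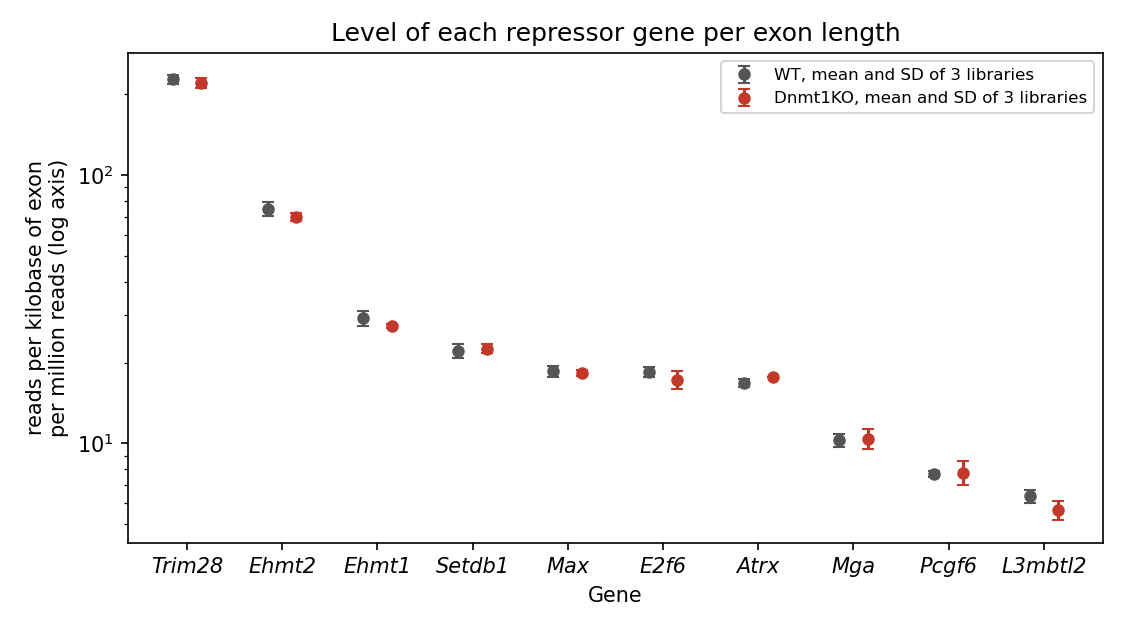
Reads per kilobase of exon at 1000000 reads per library for each repressor gene on a log axis, as mean and SD of 3 WT libraries (grey) and 3 Dnmt1KO libraries (red). Trim28 leads at about 224 and L3mbtl2 is lowest at about 5.995, and the order is the same in the 2 groups apart from neighbours that overlap.

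Dnmt1, the targeted gene, was below every WT library in all 3 Dnmt1KO libraries, with a log2 difference of -0.31 ± 0.087 and an interval of -0.51 to -0.11. Its adjusted p in limma was 0.507. Library totals ran from 18192629 to 25597662 reads, and each repressor gene had between 610 and 24428 reads in a library. The 8 epithelial markers summed to 15613 to 22793 reads in Dnmt1KO and 18472 to 21339 in WT, scaled to the depth of WT replicate 1, and 0 of the 8 passed the test. Sums for 7 mesenchymal markers were 107085 to 127554 against 105673 to 123814, for 5 endothelial markers 9460 to 12673 against 7353 to 12127, and for 4 macrophage markers 1261 to 1452 against 1311 to 1568. Mesothelial markers gave 4602 to 7127 against 4472 to 6470 and neuronal markers 368 to 720 against 220 to 1231. Erythroid markers stood at 47658 to 79890 against 35284 to 49165, liver markers at 371 to 688 against 73 to 135, and cardiac markers at 450 to 7828 against 660 to 1253, where Dnmt1KO replicate 2 was the library at 7828. None of the single markers passed limma's test. An unadjusted p under 0.05 (all genes 4.52%) was found for 1 epithelial, 1 mesenchymal, 1 erythroid, 2 mesothelial and 3 liver markers. No marker of these cell types was at 0 reads in any library, and the part of these cells in the results was not tested.

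Related genes of the same pathways did not pass either. Over 8 lists with 70 genes, each counted once, 0 passed limma's test in either direction. Over all genes 0.282% were called higher and 0.00706% lower, so 0 of 70 is near the share over all genes. Of the 70, 3 (4.29%, against 4.52% of all genes) had an unadjusted p under 0.05, and the median log2 fold change was -0.034. Once the least abundant 25% of genes were dropped, 69 related genes were left with a median of -0.036. All genes left had a median of -0.015. On the deposited scale 46 of the 70 (65.7%) had a negative fold change, against 50.04% of all genes. That count was 38 with quantile normalization, 41 with scaling to the recovered totals, 36 with sample weights and 38 without Dnmt1KO replicate 3, where the median was -0.0042. Of 10 partners in PRC1.6, among them the ubiquitin ligase Ring1 (-0.15 ± 0.097) and the E2F dimer partner Tfdp2 (-0.066 ± 0.074), 0 passed and 7 were negative (4 with quantile normalization or without WT replicate 2), with a median of -0.023. Of 5 genes for PCGF subunits of the other PRC1 complexes 0 passed. Bmi1 among them had 13.08, 12.95 and 13.15 against 12.77, 12.93 and 12.83, a difference of 0.22 ± 0.089 (unadjusted p = 0.0399, adjusted p = 1), with no overlap between groups. Pcgf5 had 57 to 88 reads per library and a difference of 0.30 ± 0.21.

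For the other H3K9 methylation genes and readers, 0 of 11 passed and the median was -0.030. Uhrf1, which reads H3K9 methylation and brings DNMT1 to newly copied DNA, had the smallest p of these at -0.18 ± 0.082 (adjusted p = 1), and the methyltransferase homologue Setdb2 stood at -0.12 ± 0.13. Of 11 measured genes among KAP1 relatives, its zinc finger partners and the HUSH complex, 0 passed and the median was 0.013. Zfp809, a zinc finger protein that leads TRIM28 to proviral DNA, had 10.31, 10.40 and 10.29 against 9.84, 9.9999 and 10.06, higher in all Dnmt1KO libraries by 0.37 ± 0.13 (unadjusted p = 0.0194, adjusted p = 0.808). The imprint guardian Zfp57 had a difference of 0.044 ± 0.12 and the HUSH subunit Fam208a of 0.091 ± 0.087. Of 8 genes for ATRX partners and H3.3 deposition 0 passed (median -0.0034), with Hira at -0.12 ± 0.071 and Daxx at -0.058 ± 0.083. H3f3a and H3f3b have processed copies in the genome, so their reads are uncertain.

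All 7 other E2F genes had negative fold changes on the deposited scale and under the 3 other scalings (6 where 1 Dnmt1KO library, whichever, was left out), with 0 passing and a median of -0.084, and E2f4 (-0.20 ± 0.090) and E2f1 (-0.16 ± 0.091) had the smallest p. Of 10 genes for other factors of the MAX network 0 passed (median -0.048). Mycn, which binds DNA with MAX, had 12.55, 12.98 and 13.09 against 13.17, 13.34 and 13.13, a difference of -0.34 ± 0.14 (unadjusted p = 0.0395, adjusted p = 1). Dnmt1KO replicate 1 was the lowest, and without it the difference was -0.18. Mycl stood at -0.26 ± 0.19. Of 9 genes for enzymes that remove H3K9 methylation 0 passed (median -0.014), with Kdm4c at 0.20 ± 0.10 and Kdm4b at -0.17 ± 0.096.

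Some germline genes, 7 of 23 measured on a list, rose in the same libraries. The list holds 36 germline genes, among them known targets of PRC1.6, E2F6, G9a or SETDB1. Over all genes 0.282% were called higher and 0.00706% lower. Of the 23 measured 0 were called lower and 16 did not pass, with a median log2 fold change of 0.92. Fold changes were negative for 2 of the 23, the lowest at -0.49. All Dnmt1KO values were above all WT values for 13 genes and below them for 1, against 4.79% and 3.99% of all genes. The list was drawn up with earlier results of these libraries known, so its direction is no independent evidence. Genes with fewer than 60 reads over the 6 libraries were not analysed here, so a germline gene had to be read in some library to be counted. Genes with few WT reads, such as Tuba3a, Tuba3b and Mov10l1, could be counted only through their Dnmt1KO reads. This limit favours positive fold changes, so the count of 7 and the median over the 23 are partly set by it. The 7 were Tuba3a, Tuba3b, Dazl, Sohlh2, Stra8, Mov10l1 and Syce1. Without Dnmt1KO replicate 1, 2 or 3 or WT replicate 2 the count was 4 in each case, voom called 1, and 0 were called among the 3 that stayed in the table after the least abundant 25% of all genes had been taken out.

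Tubulin genes Tuba3a and Tuba3b, whose windows share the E2F motif above, had 245, 192 and 628 reads against 4, 5 and 3 and 384, 198 and 1114 reads against 1, 0 and 1. Their ratios of scaled reads were 103 (exact 95% counting interval 58.6 to 199) and 981 (271 to 8110), intervals that cover counting error only, with limma adjusted p = 0.000903 for both and an adjusted p = 0.123 and 0.475 with voom, the 1 alternative of 13 that ended either call. These are near-identical copies, so the split of reads between them is uncertain. Of 12 measured germline genes with either motif 3 were called and 9 were not, and of 10 with neither 4 were called and 6 were not. Mov10l1, with an E-box, had 62, 59 and 160 reads against 5, 0 and 0 (adjusted p = 0.034), a call that was lost in 7 of 13 alternatives and was the 1 call that voom made on this list. Ddx4, with both motifs, had 35, 49 and 89 against 14, 20 and 37 (1.48 ± 0.46, adjusted p = 0.612). Slc25a31, with an E-box, had 104, 70 and 275 against 16, 17 and 37 (2.72 ± 0.51, adjusted p = 0.117), and Stag3, also with an E-box, 339, 289 and 556 against 356, 269 and 412 (0.36 ± 0.22, adjusted p = 1). On the X chromosome Taf7l, with an E-box, had 33, 24 and 43 reads against 4, 6 and 7 (2.66 ± 0.45, adjusted p = 0.076) and Tex11 35, 21 and 29 against 3, 1 and 7 (3.26 ± 0.64, adjusted p = 0.13). Sycp1, with an E-box, had 100, 119 and 99 reads against 50, 71 and 90 (0.83 ± 0.28, adjusted p = 0.753). The other 4 with a motif, Brdt (0.39 ± 0.23), Meioc (0.92 ± 0.45), Tdrd9 (0.041 ± 0.32) and Tdrd1 (0.20 ± 0.20), were not called (adjusted p = 1 for each). Dazl (adjusted p = 0.00346), Sohlh2 (0.000903), Stra8 (0.0312) and Syce1 (0.0456), which were called, held neither motif in these windows. Dazl and Sohlh2 lost the call with voom alone of 13 alternatives (adjusted p = 0.125 and 0.0767). Stra8 lost it in 7, the highest adjusted p being 0.184, and Syce1 in 10, the highest being 0.246. In all 7 called genes Dnmt1KO replicate 3 had the most reads.

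**Figure D4:**
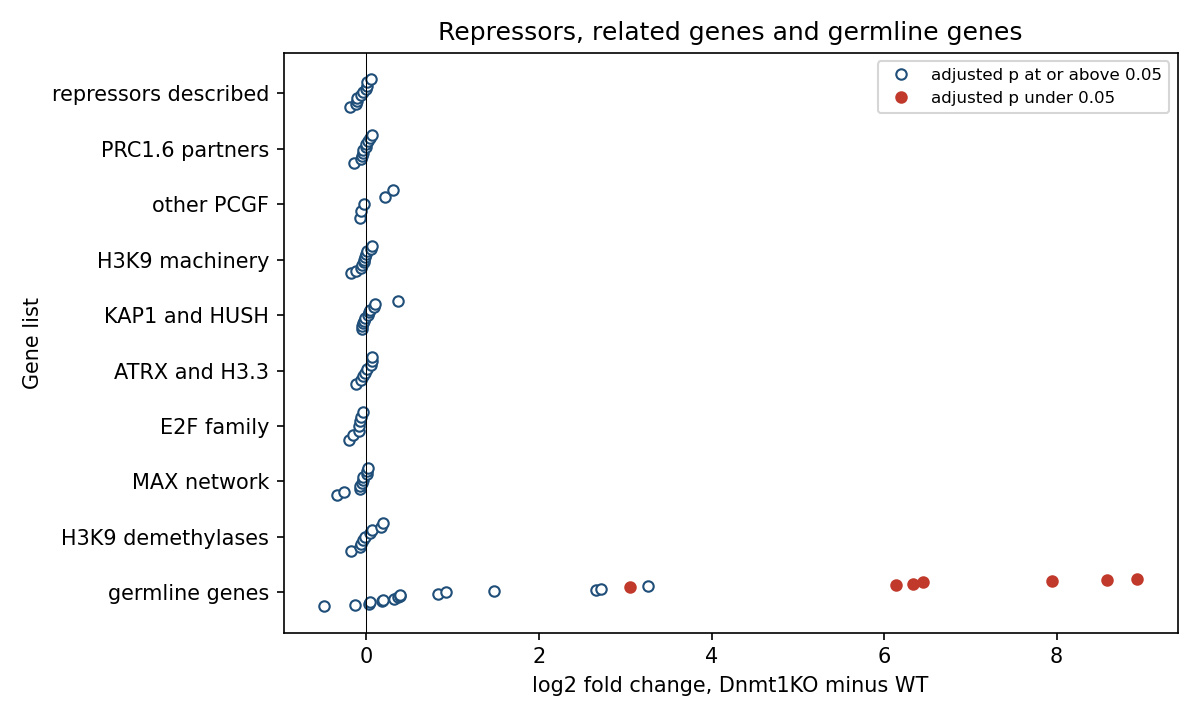
Log2 fold change, Dnmt1KO minus WT, of every measured gene in the repressor set, the 8 related lists and the germline list, with open points for adjusted p at or above 0.05 and filled red points under it. Repressors and related genes lie between -0.34 and 0.37, and the 7 filled points all belong to the germline list.

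Library by library, the median of the 10 repressors lay 0.051, 0.035 and 0.10 below the WT mean in Dnmt1KO replicates 1, 2 and 3, with 6, 7 and 8 of the 10 below it. The median of the 23 germline genes lay 0.99, 0.98 and 0.82 above the WT mean in the same libraries. WT libraries had repressor medians of 0.028, 0.0067 and -0.050. The Dnmt1KO replicate 2 median was thus inside the range of single WT libraries, and that of Dnmt1KO replicate 3 was below it. Dnmt1KO replicate 1, at -0.051, was nearly equal to the lowest WT library, at -0.050. Each WT library is part of the WT mean, which narrows the WT range, so the 2 groups are not measured alike.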

How the data were processed

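RNA-seq libraries from E12.5 lungs, 6 in all, were compared, 3 Dnmt1KO and 3 WT, grouped by the titles in the labels. The authors deposited 1 log2 value per gene and library, in a column headed SIGNAL, per the file headers. STAR, limma and build mm9 are named in the submitters' processing notes. How reads were counted, on which annotation and strand, and which genes were filtered is not given in the sources used here. Raising 2 to each value gave a whole read number plus 0.5, times a constant of the library, for 100% of genes within 1e-06 reads. Those whole numbers are the reads given, and scaled reads use the constants relative to WT replicate 1. Symbols came from GENCODE's GRCm38 table, which named 13967 of 14162 identifiers, and exon lengths from the same annotation.

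The deposited log2 values were fitted in limma 3.58.1 (R 4.3.3) with genotype as the only term and trended, robust moderation. P-values were adjusted over all 14162 genes by Benjamini-Hochberg with a threshold of 0.05, and the fit was tested on simulated data. Exact Clopper-Pearson 95% intervals of read ratios cover counting error only. Promoter motifs were counted in the 250 bases before each start on both strands. The genes named were the 10 repressors, Dnmt1, the called genes or up to 2 with the smallest p of each list, any list gene with an unadjusted p under 0.05, and X-linked list genes. Cell type marker lists are not covered by this rule and are given as sums and counts, without single genes. Zfp57, Stag3, Brdt, Meioc, Tdrd1, Tdrd9, H3f3a, H3f3b and Chadl were named outside this rule, after their values were seen. The genes and lists were chosen with earlier results of these data known. Cbx3 stands on 2 lists and is counted once in the total.

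The fit was repeated with a replicate block, without the lowest 25% of genes by mean, after quantile normalization or median centring, with plain moderation, with sample weights, after scaling to the recovered totals, with voom on the recovered reads (library sizes by trimmed means of M values), and without each library in turn.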

Additional observations from a re-analysis of the deposited data

How the results depend on the processing

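Across 14 alternatives the 10 repressor genes gave 140 fits, of which 0 were called and 128 kept the sign. Fold changes stayed between -0.23 and 0.079, and the smallest adjusted p was 0.673, for L3mbtl2 with sample weights. The sign turned in the other 12 fits, for 4 genes near 0. Pcgf6 became 0.0071 with quantile normalization and 0.011 with scaling to the recovered totals, and lay between -0.088 and 0.055 when any library was left out (0.055, 0.019 and 0.012 without Dnmt1KO replicates 1 and 2 and WT replicate 3). Max became 0.00014 with sample weights and ran from -0.077 to 0.0077 as libraries were left out. Setdb1 ran from -0.036 to 0.051 (-0.0014, -0.013 and -0.036 without Dnmt1KO replicates 1 and 2 and WT replicate 3) and Mga from -0.058 to 0.067 (-0.058 and -0.033 without Dnmt1KO replicate 1 and WT replicate 2).

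Genes called higher over the whole table numbered 26 with the replicate block and 15 to 42 as libraries were left out. With the lowest 25% of genes removed the number was 0, and only 3 of the 23 measured germline genes stayed in the table. Genes called lower numbered 0 with the replicate block, the lowest 25% removed or plain moderation, 12 with sample weights, and 0 to 17 as libraries were left out. Listed germline genes called higher were 0 with the lowest 25% removed, 4 with plain moderation (no trend or robust estimation), 1 with voom and 4 to 6 as libraries were left out. Where no cause is given, the cause was not tested. The replicate block changed no call among the 10 repressor genes or the 8 related lists, but called 5 germline genes in place of 7, losing Mov10l1 (adjusted p = 0.0839), Stra8 (0.138) and Syce1 (0.0899) and gaining Slc25a31 (0.0418). The median fold change turned its sign under at least 1 alternative in 6 of the 8 related lists, all but the E2F genes and the H3K9 methylation genes. Deviations from the group means of samples with the same replicate number correlated at -0.0027, -0.18 and 0.31 across genes. For samples with unlike numbers the correlations ran from -0.37 to 0.38. With 3 libraries in a group these deviations are tied to each other, so the correlations cannot decide whether the samples were paired. Counting error alone came to 0.010 (Trim28) to 0.053 (L3mbtl2) per library on the log2 scale, against pooled SDs within groups of 0.064 and 0.10 for these genes. The part of depth in their spread was not tested.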
